A study of Mus musculus with 9 samples.

Results

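Bcl11b lies on the minus strand of mouse chromosome 12, at chr12:109148613-109241812 of the mm9 build, and spans 93.2 kb. The H3K27ac-enriched islands described here were those overlapping a window of 564 kb, from 50 kb upstream of the Bcl11b transcription start site (TSS), through the gene and across the gene desert downstream of it, to the next protein-coding gene. That next gene is 3110018I06Rik, annotated as 1005 bp at chr12:108726842-108727846. The window held 28 of the 65563 islands of wild-type (WT) cells and 38 of the 82213 islands of Tcf1/Lef1-deficient (dKO) cells. No annotated protein-coding gene stands between 3110018I06Rik and Vrk1, and the RefSeq gene table had no entry for 3110018I06Rik. The stretch of 1411 kb from 3110018I06Rik to Vrk1 is therefore described beside the window as the far desert, and the 421 kb between Bcl11b and 3110018I06Rik as the near desert.

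H3K27ac ChIP-seq was performed on naive CD8+ T cells (GFP+ TCRbeta+ CD62Lhi CD44lo-med) sorted from the spleen of mice on the C57BL/6 background, to ask how Tcf1 and Lef1 shape the active enhancers of mature CD8+ T cells. Both genotypes carried the hCD2-Cre transgene, which is most active in mature peripheral T cells, and a Rosa26-GFP allele. WT mice had intact Tcf7 and Lef1, the genes of Tcf1 and Lef1, whereas dKO mice (Tcf1-/-Lef1-/-) were homozygous for floxed alleles of both. Excision by hCD2-Cre was not complete, and GFP was used to mark the cells in which Cre had acted. The series had 9 samples, 4 H3K27ac samples and 1 input in WT and 3 H3K27ac samples and 1 input in dKO, and each deposited island list was called on the pooled reads of a genotype. Because values exist per genotype and not per replicate, differences are given without p-values, and the 95% Wilson intervals beside them reflect counting error alone.

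Bcl11b is a zinc finger transcription factor that drives commitment of thymic progenitors to the T cell lineage and is then kept on in mature T cells, where it holds natural killer (NK) and other innate genes low. Its transcription in T cells is known to need a distal enhancer far downstream in the desert, and a noncoding RNA named ThymoD is transcribed there. The annotation used here names no gene ThymoD, so none of the regions below was matched to it. H3K27ac, acetylation of lysine 27 of histone H3, marks active promoters and enhancers, and dense clusters of it are called super enhancers (SEs). Tcf1 and Lef1 are high-mobility-group proteins that bind a short shared motif.

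Because Tcf1 and Lef1 are the factors removed, the core letters of their motif, ATCAAAG or CTTTGAT on the other strand, were searched in the sequence under the islands. Windows of 300 bases are shown for the island over the gene and for the far-desert region with the most WT counts, each placed where the matches of that region were densest and outside annotated exons. The promoter is shown as the 62 bases of the RefSeq promoter entry that lie upstream of the annotated first exon. All are mm9, matches are in capitals, and the promoter is given on the minus strand and the others on the plus strand.
Bcl11b promoter, chr12:109241813-109241874: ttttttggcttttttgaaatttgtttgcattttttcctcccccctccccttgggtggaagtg
Bcl11b intron, chr12:109213547-109213846: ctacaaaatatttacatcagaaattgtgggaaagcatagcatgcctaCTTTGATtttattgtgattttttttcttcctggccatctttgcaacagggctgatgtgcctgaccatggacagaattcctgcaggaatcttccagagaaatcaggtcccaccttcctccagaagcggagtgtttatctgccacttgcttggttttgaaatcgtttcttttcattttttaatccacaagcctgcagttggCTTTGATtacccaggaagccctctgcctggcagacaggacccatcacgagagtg
Far desert, 837 to 892 kb region, chr12:108373138-108373437: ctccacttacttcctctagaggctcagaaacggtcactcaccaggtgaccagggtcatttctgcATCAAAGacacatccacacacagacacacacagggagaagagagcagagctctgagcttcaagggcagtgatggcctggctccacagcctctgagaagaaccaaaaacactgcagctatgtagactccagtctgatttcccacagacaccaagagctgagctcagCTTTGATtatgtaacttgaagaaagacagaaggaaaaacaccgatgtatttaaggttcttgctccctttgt

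The intron window and the window of the 837 to 892 kb region each held 2 matches, and the promoter bases held 0. Across all autosomal regions under islands, 4.67% of tiles of 300 bases held a match. The share was 4.25% under the gene region, 4.41% in the near desert and 5.26% in the far desert. Per kb there were 0.142 matches in the gene region, 0.149 in the near desert, 0.186 in the far desert and 0.163 over all autosomal regions. The region 837 to 892 kb downstream had 14 matches, or 0.257 per kb. Of 32851 RefSeq promoter entries, 3.21% held a match in the 250 bases before the start. A match gives letters only, and binding was not measured in these files.

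Over the whole series, the WT islands held 82668007 counts and the dKO islands 57665047. Counts were therefore scaled to the total of their list, as counts per 1000000 island counts (CPM). The dKO list held more and narrower islands, with a median width of 3000 bp against 3600 bp in WT. Before scaling, its islands held a mean of 134.3 counts per kb against 210.5 in WT, values that also carry the difference in list totals. WT and dKO islands overlapping by 1 bp or more were joined into merged regions. The log2 ratio of scaled dKO to WT counts had a median of -0.07 over the 45322 regions with islands in both lists. All 8 naive CD8 T cell markers, Cd8a and Cd3e among them, had an island at a TSS in both lists. Promoter islands were also called at 3 of 4 B cell, 4 of 4 myeloid, 2 of 2 erythroid, 2 of 2 CD4 T cell and 1 of 2 NK cell markers in both lists, whereas Ebf1 and Ncr1 had none. Islands at a TSS summed to 2085 CPM in WT and 1380 CPM in dKO for the naive CD8 T cell markers. An island at the TSSs of 2 markers was counted for each, as was the 1 WT island that spans Cd8a and Cd8b1. In dKO, Cd3e had 1 island of 12395 counts and Cd3g had 2 islands of 12681 counts together. An island may thus be counted for both there too, and neither sum is free of double counting. The sums were 199 and 190 for B cell, 116 and 98.3 for myeloid, 49.9 and 64.3 for NK cell, 59.0 and 76.6 for CD4 T cell and 23.9 and 42.6 for erythroid markers, and their part in the Bcl11b values was not tested. In pooled cells, fewer cells carrying the mark and less mark per cell cannot be told apart.

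Bcl11b itself was covered nearly end to end by 1 island in each genotype. In WT this island ran from 109154401 to 109245200, was 90.8 kb wide and held 35248 counts. In dKO it ran from 109153401 to the same upstream end, was 91.8 kb wide and held 24796 counts. It was the 50th widest of the WT islands and the 58th widest of the dKO islands, and ranked 36th and 31st by counts. The upstream border, 3.39 kb before the TSS, was identical at the resolution of the 200-bp windows. Scaled to the list totals the island held 426 CPM in WT and 430 CPM in dKO. The log2 ratio of dKO to WT was 0.01, with an interval of -0.01 to 0.04, and the ratio of scaled counts per kb was -0.004. That interval includes 0, but the ratio was 0.083 when counts were scaled to regions shared by both lists, 0.085 when scaled to the median ratio and 0.095 with islands of at least 200 counts, each above its upper bound.

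The near desert was almost as fully covered. Of its sequence 88.1% was covered in WT and 89.7% in dKO. The islands with their midpoint in it, 24 in WT and 33 in dKO, were 372.4 and 379.6 kb wide together. They held 65608 counts or 794 CPM in WT and 49328 counts or 855 CPM in dKO. The log2 ratio was 0.11 (0.09 to 0.13) for scaled counts and 0.08 for scaled counts per kb. The near desert thus carried more scaled counts than the gene island at a lower density, 176.2 WT counts per kb of island against 388.2 over the gene. The same order was seen in dKO, with 129.9 and 270.1 counts per kb.

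The 50 kb upstream of the TSS had the highest ratio of dKO to WT, though the near desert differed by more CPM. Islands with their midpoint in it were 16.8 kb wide together in WT and 27 kb in dKO. They held 2159 and 2372 counts, a ratio of 1.58-fold (log2 0.66, 0.57 to 0.74). Of the flank itself 40.4% was covered in WT and 60.8% in dKO, which includes the upstream end of the gene island. The counts of the gene island are not part of the flank sums. Counts per kb of island were 128.5 in WT and 87.9 in dKO, a log2 ratio of -0.03 once scaled, so the higher dKO count went with wider islands rather than with denser ones. This flank held 26.1 CPM in WT and 41.1 CPM in dKO, the smallest share of the window. Over the whole window the islands held 1246 CPM in WT and 1327 CPM in dKO, a log2 ratio of 0.09 (0.08 to 0.10), and 84.8% and 88.4% of the window was covered. The ratio per kb was 0.04 and turned to -0.021 when the desert was ended at the next gene of any biotype and to -0.019 when it was extended to Vrk1.

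**Figure D1:**
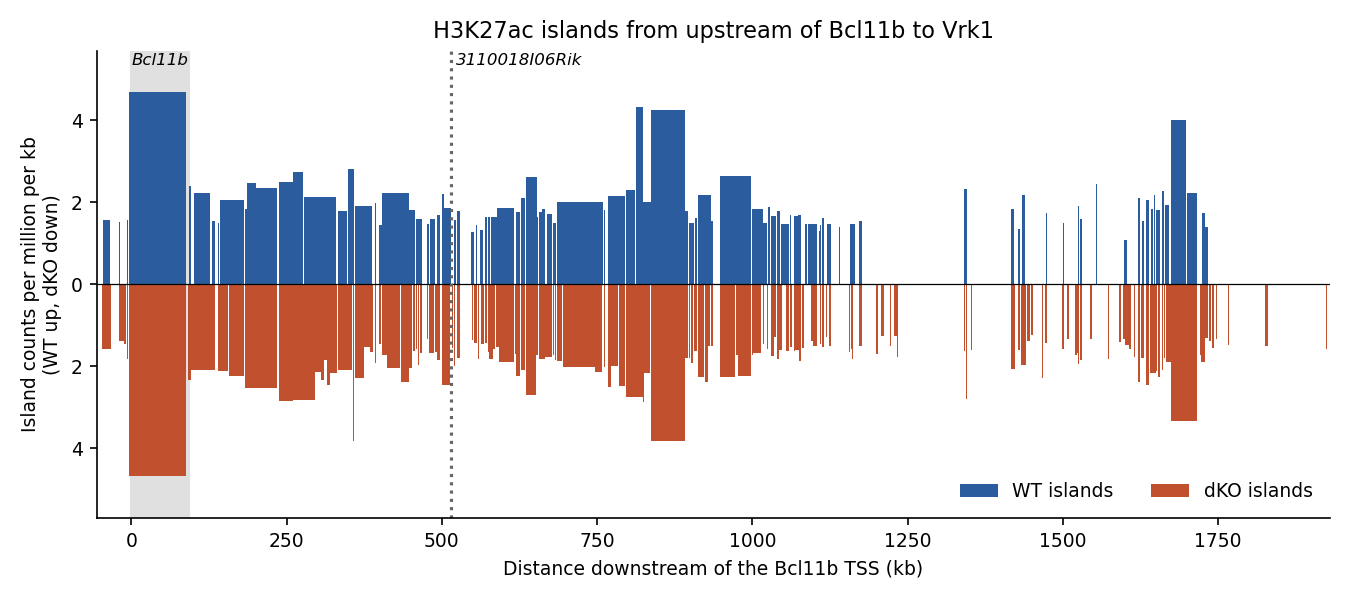
Islands called in WT (upward) and dKO (downward) from 50 kb upstream of the Bcl11b TSS to Vrk1, plotted by distance downstream of the TSS in kb, with bar height as CPM per kb of island. The gene (grey) carries islands of 4.70 in WT and 4.68 in dKO, dense islands recur at 837 to 892 kb (4.26 and 3.84), and the dotted line marks 3110018I06Rik.

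Merging gave 22 regions in the window, 20 with islands in both lists, 2 with a dKO island alone (9.09%) and 0 with a WT island alone. Over all 76633 regions of the genome, 28.1% had a dKO island alone and 12.8% a WT island alone. A scaled count at least 1.5 times higher in dKO was found in 2 of the 20 regions (10%), beside 11.1% of all regions with islands in both lists. At least 1.5 times higher in WT was 1 region (5%), beside 14.6%. In either direction the shares were close to or under the background and mark nothing about Bcl11b. By scaled counts per kb, 0 of the 20 passed in either direction, beside 1.17% of all regions higher in dKO and 4.51% higher in WT. Without regard to size, 14 of the 20 were higher in dKO, beside 43.4% of all regions, and their median log2 ratio was 0.13 against the genome median of -0.07.

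The regions with the most WT counts, apart from the gene, were long blocks of the near desert. The region 261 to 332 kb downstream of the TSS, which holds the annotated noncoding gene 4930465M20Rik, covered 68.4 kb with 12838 counts in WT and 68 kb with 9808 counts in dKO (log2 ratio 0.13). It consisted of 2 islands in WT and 6 in dKO. The region 183 to 235 kb downstream, with the noncoding gene Gm15208, had 9947 counts in WT and 7615 in dKO (0.13), from 3 islands and 1. The region at 404 to 447 kb had 7772 and 4950 counts and a ratio of -0.13 (-0.18 to -0.08). The region at 139 to 182 kb had 7049 and 5361 counts and a ratio of 0.12 (0.07 to 0.18). Blocks of the desert thus lay on either side of equality, and islands were cut up differently between the lists over nearly the same covered length.

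The largest ratios in the window belonged to small regions. The region 12 to 20 kb upstream of the TSS was 2.4 kb wide with 301 counts in WT and 7.4 kb wide with 589 counts in dKO, for a log2 ratio of 1.49 (1.29 to 1.69). Per kb of island it was lower in dKO, at -0.14, so its gain lay in width. The region at the gene end, 91.2 to 95.8 kb downstream of the TSS, was 2.6 kb wide with 517 counts in WT and 4.4 kb wide with 591 in dKO (0.71, and -0.05 per kb). The region 489 to 498 kb downstream had 807 and 779 counts, with a ratio of 0.47.

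In the other direction, the region 5.19 to 7.39 kb upstream was 2.2 kb wide with 285 counts in WT and 1.2 kb wide with 127 in dKO, for a log2 ratio of -0.65 (-0.95 to -0.35). Per kb it was higher in dKO, at 0.23. The region at 398 to 403 kb downstream had 596 and 287 counts (-0.53), and the region at 458 to 468 kb had 1300 and 678 counts (-0.42). All 3 were narrower in dKO, and per kb all 3 lay above 0. The only call higher in WT, the upstream region, was lost when counts were scaled to regions shared by both lists or to the median ratio.

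Ratios per kb spread far less, from -0.14 to 0.34. The highest was that of the region crossing 3110018I06Rik, 500 to 516 kb downstream, with 2450 WT counts over 15.2 kb and 1933 dKO counts over 13.6 kb (0.18 for counts and 0.34 per kb). In WT 1 of its islands, of 1761 counts, covered the TSS of 3110018I06Rik, whereas the dKO island there did not reach that gene. The next were the upstream region given above and the region 237 to 260 kb downstream, with 4659 and 3713 counts over the same 22.6 kb in both lists (0.19 per kb). At the low end, after the region 12 to 20 kb upstream, were the region at 404 to 447 kb (-0.09 per kb) and that at 392 to 395 kb (-0.05), which had 429 counts in WT and 266 in dKO.

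The 2 regions with a dKO island alone were 1 of 300 counts over 3.6 kb, 7.99 to 11.6 kb upstream of the TSS, and 1 of 96 counts over 1.2 kb, 498 to 499 kb downstream. The first stands between the upstream region that was higher in dKO and the one that was higher in WT. No count exists for WT at either place, since an island was not called there, and no fold is given.

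**Figure D2:**
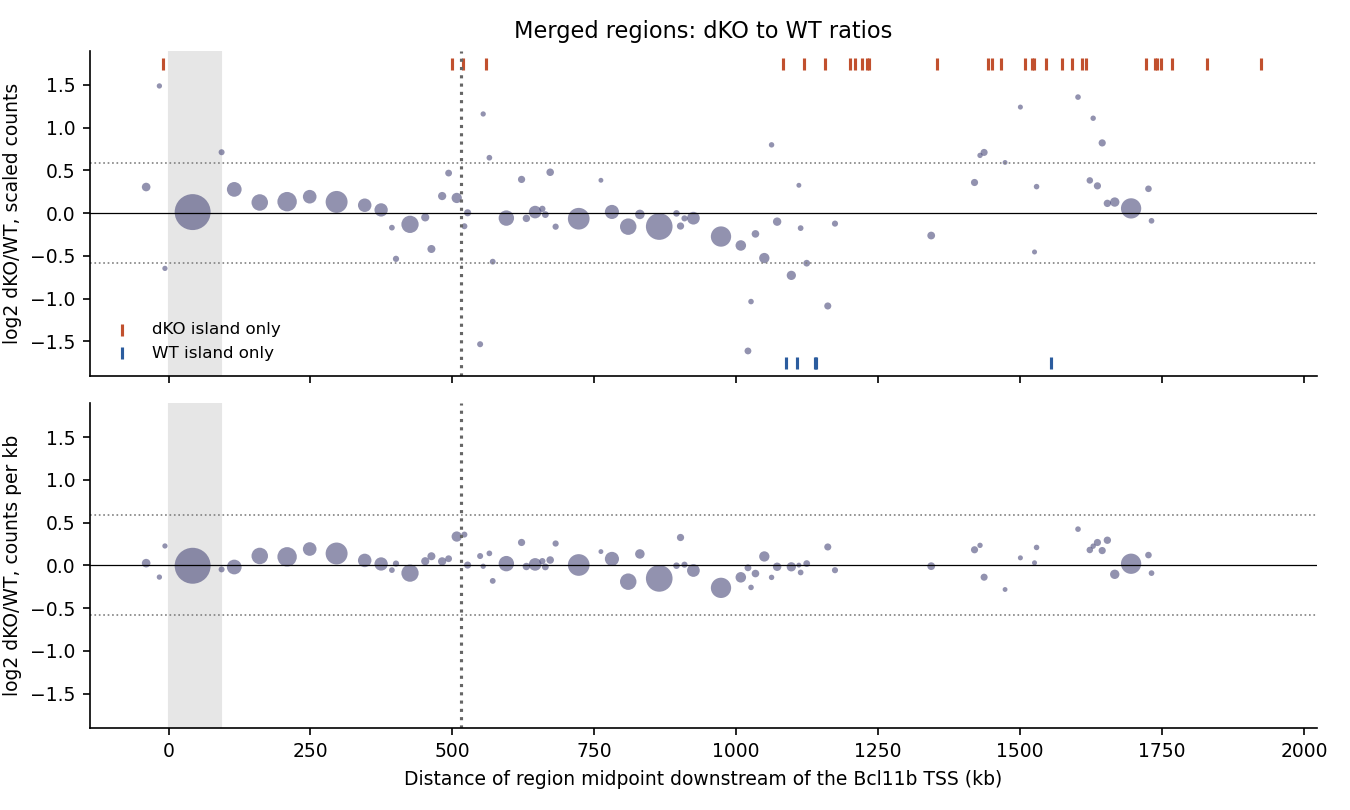
Log2 ratio of dKO to WT for each merged region with islands in both lists, by scaled counts (top) and by scaled counts per kb (bottom), against distance downstream of the Bcl11b TSS in kb. Circle area grows with WT counts, grey marks the gene, dotted horizontal lines mark 1.5-fold, ticks mark regions with an island in 1 list alone. Large regions of the window sit near 0 in both panels, and no region passes 1.5-fold per kb.

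Beyond 3110018I06Rik the mark went on for more than a megabase. The far desert held 71 islands and 119241 counts in WT (1442 CPM) and 116 islands and 85580 counts in dKO (1484 CPM), and 45.3% and 48.7% of it was covered. The log2 ratio was 0.04 (0.03 to 0.05) for scaled counts and -0.06 per kb. Of its 90 regions, 56 had islands in both lists, 5 in WT alone and 29 in dKO alone (32.2%). Of the 56, 10 (17.9%) were at least 1.5 times higher in dKO and 6 (10.7%) in WT, and 0 in either direction per kb. The background shares are those given above, and the sum over the far desert hid stretches that went opposite ways.

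The most WT counts of the far desert were in the region 837 to 892 kb downstream of the Bcl11b TSS, chr12:108350201-108404600. It held 1 island in each list, of 54.4 kb and 19161 counts in WT and of 54.2 kb and 11989 counts in dKO. The log2 ratio was -0.16 (-0.19 to -0.12) for scaled counts and -0.15 per kb, so the lower dKO value did not come with a narrower island. Both noncoding genes annotated there, Gm16084 on the minus strand and Gm16085 on the plus strand, have their TSSs under this island in both lists. Its WT density, 352.2 counts per kb, was near that of the gene island, and its dKO density was 221.2.

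Of the regions around it, some were lower in dKO and some had ratios near 0. The region at 796 to 824 kb, with the TSSs of Gm2800 and Gm5187, had 7008 and 4381 counts (-0.16, and -0.19 per kb). The region at 948 to 999 kb had 10914 and 6297 counts, a log2 ratio of -0.27 (-0.32 to -0.23) and -0.26 per kb. The regions directly beside it, at 824 to 836 kb and 892 to 897 kb, had 2032 and 1403 counts (-0.01, and 0.13 per kb) and 714 and 497 counts (-0.003). The region at 767 to 795 kb had 5042 and 3551 counts (0.01, and 0.08 per kb). The region at 685 to 760 kb had 12535 and 8356 counts and a ratio of -0.07, with 0.01 per kb.

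In bins of 100 kb, counts were shared out by overlapping length. Up to 800 kb the ratio ran from -0.05 to 0.18, and from 800 to 1200 kb it ran from -0.42 to -0.15. Farther on the ratio was mostly above 0. It was 0.05, 0.13 and 0.18 in the first 300 kb from the TSS, 0.03 and -0.05 in the next bins, and 0.07 to -0.01 between 500 and 800 kb. It was -0.15 at 800 to 900 kb, -0.21 at 900 to 1000 kb and -0.42 in both bins from 1000 to 1200 kb. Coverage at 1000 to 1100 kb was 79.8% in WT and 60.6% in dKO. From 1200 to 1300 kb no WT island was called, while dKO islands covered 14.8%. The ratio at 1300 to 1400 kb was -0.013.

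Farther on, dKO was higher. The log2 ratio was 1.03 at 1400 to 1500 kb and 1.42 at 1500 to 1600 kb, where coverage was 8.19% in WT and 23.8% in dKO. It was 0.17 at 1600 to 1700 kb and 0.83 at 1700 to 1800 kb. The level there was low apart from 1 region at 1675 to 1716 kb, with the TSS of Gm17032, which held 10897 counts in WT and 7899 in dKO (0.06). The bins from 1800 kb to Vrk1 held only dKO islands, 2 in all, of 380 and 109 counts.

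**Figure D3:**
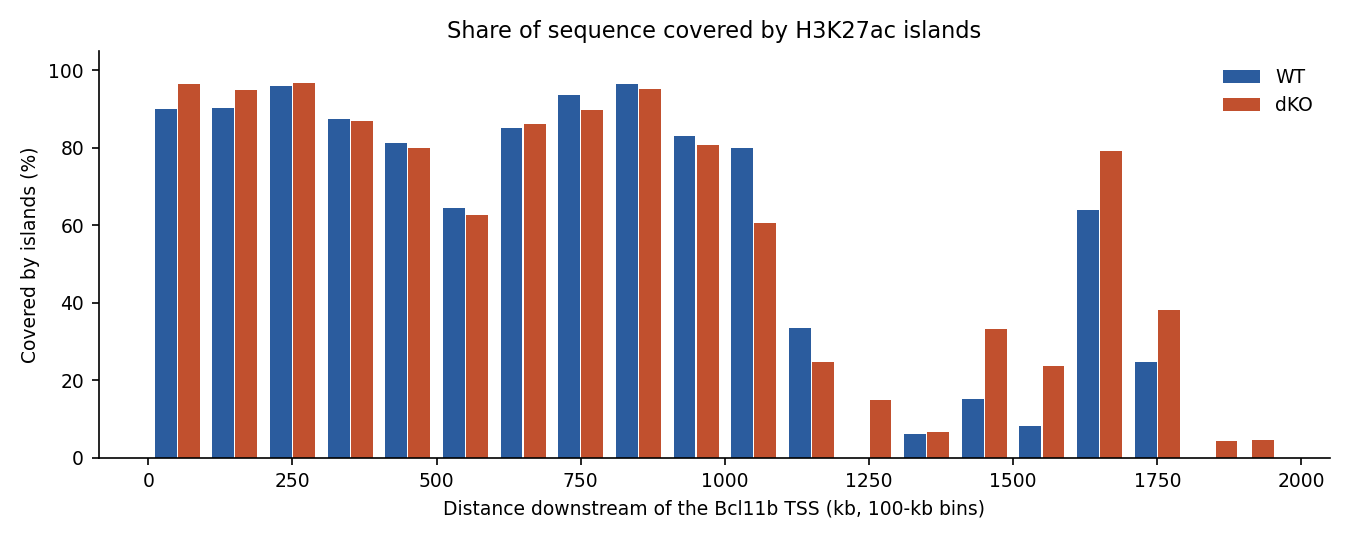
Share of each 100-kb bin covered by WT and dKO islands (%), by distance downstream of the Bcl11b TSS in kb. WT coverage exceeds dKO coverage at 1000 to 1100 kb (79.8% and 60.6%), and dKO coverage exceeds WT coverage at 1500 to 1600 kb (8.19% in WT and 23.8% in dKO).

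Set out by zones, chosen after these bins were seen, the 17 regions at 900 to 1200 kb with islands in both lists included 15 that were lower in dKO, 5 of them by at least 1.5 times, and 1 higher by as much. Over all regions of the genome 14.6% were lower and 11.1% higher by as much, and 43.4% were higher by any size, but a zone picked for its ratios cannot be read against these shares. All islands of the zone, single-list ones included, added up to 31452 WT counts over 198.4 kb and 17731 dKO counts over 166.8 kb, for a log2 ratio of -0.31 (-0.33 to -0.28) and -0.06 per kb. The largest decrease of the far desert was the region at 1017 to 1024 kb, with 6.6 kb and 811 counts in WT and 2.2 kb and 185 counts in dKO (-1.61, -1.84 to -1.38, and -0.03 per kb). Next came the region at 546 to 551 kb, outside this zone, with 523 and 126 counts (-1.53, and 0.11 per kb). In the zone, the regions at 1158 to 1165 kb and 1024 to 1028 kb had 901 and 296 counts (-1.09) and 373 and 127 counts (-1.03), and that at 1089 to 1105 kb had 1888 and 795 (-0.73). Of the 5 regions of the far desert with a WT island alone, 4 lay in this zone, and they held 164 to 388 counts each. The noncoding gene 1700013N06Rik has its TSS in this zone, within 1 kb of a WT island of 901 counts and of no dKO island.

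At 1400 to 1800 kb the picture was reversed. Of 17 regions with islands in both lists 15 were higher in dKO, 7 by at least 1.5 times and 0 lower by as much, and 16 of the 34 regions of the zone had a dKO island alone. The shares over the genome were 11.1% higher and 14.6% lower by 1.5 times, 43.4% higher by any size and 28.1% with a dKO island alone, and the same limit holds for this zone. The zone had 112 kb of island and 21693 counts in WT and 174.2 kb and 21614 counts in dKO, for a log2 ratio of 0.51 (0.49 to 0.54) and -0.12 per kb. The largest increase was the region at 1598 to 1607 kb, with 4.4 kb and 391 counts in WT and 8.4 kb and 699 counts in dKO (1.36, 1.18 to 1.54, and 0.42 per kb). The regions at 1499 to 1503 kb (222 and 366 counts, 1.24) and 1626 to 1631 kb (330 and 497 counts, 1.11) followed. The dKO-only regions of the far desert were small, with 96 to 386 counts each and 6288 in all, or 73.4 kb of sequence. The largest, of 386 counts at 1442 to 1447 kb, covered the TSS of Gm17033.

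Of 20 noncoding genes annotated between Bcl11b and Vrk1, pseudogenes included, 12 had an island within 1 kb of the TSS in WT and 12 in dKO. Islands covered 55.2% of this stretch in WT and 58.1% in dKO, so these counts mark nothing about the genes. The share over all noncoding genes was not computed. In the near desert these were Gm15208 and 4930465M20Rik in both lists, while the pseudogene Gm9006 had none. The island over the Gm15208 TSS held 6549 counts in WT and 7615 in dKO, where it was joined to its neighbours.

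Islands stitched at the default distance of the ROSE procedure placed Bcl11b within 1 very long stretch in each list. In WT it ran from 108711801 to 109261800, or 550 kb with 102876 counts, and ranked 29th of 14376 stitched regions. In dKO it ran from the same downstream end to 109288600, or 576.8 kb with 77588 counts, and ranked 54th of 12919. Both were above the point taken as the limit of SEs, which left 1139 SEs in WT and 974 in dKO. In the far desert, 2 WT SEs, ranked 107th (389.6 kb, 69009 counts) and 817th (193.2 kb, 24451 counts), faced a single dKO SE of 578 kb with 59541 counts that ranked 126th. A stretch near Vrk1 was an SE in dKO (159.2 kb, 16506 counts, ranked 903rd) and just outside the limit in WT (112.2 kb, 17925 counts, ranked 1167th). These stitched counts are not scaled to the list totals, and each rank is within its own list, so lower dKO counts do not mean less mark. Once scaled, the islands of the window held 1246 CPM in WT and 1327 CPM in dKO, and those of the far desert 1442 and 1484 CPM.

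Few gene deserts carried so much of the mark. Among 600 autosomal stretches of at least 500 kb between neighbouring protein-coding genes, 319 had no WT island and 325 no dKO island, and the median level was 0. The near desert, shorter than this minimum and set beside them, had 1886 CPM per Mb in WT and 2033 in dKO. It was exceeded by 1 desert in each list, that between Eea1 and Btg1 (2330 and 2562 CPM per Mb), and by 0 in the share covered. With a minimum of 400 kb, which the near desert meets, 3 of 753 deserts exceeded it in WT and 5 in dKO. The far desert, itself 1 of the 600, had 1022 and 1052 CPM per Mb, with 11 deserts higher in WT and 9 higher in dKO.

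The other deserts with the highest WT level were those between Satb1 and Kcnh8, Id2 and Rnf144a, Enc1 and Gm10260, and Btg1 and Dcn. Their log2 ratios of dKO to WT were -0.14, -0.84, -0.30 and -0.75, and that between Eea1 and Btg1 was 0.14. Over the 250 deserts with at least 200 counts the median was -0.18, with quartiles of -0.69 and 0.24, and both Bcl11b stretches (0.11 and 0.04) lay between the quartiles. The standing of the desert depended on where it was ended. When genes that RefSeq does not name as protein-coding were left out, the Bcl11b desert ran to Vrk1 and was exceeded by 9 of 620 deserts in WT and 7 in dKO.

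**Figure D4:**
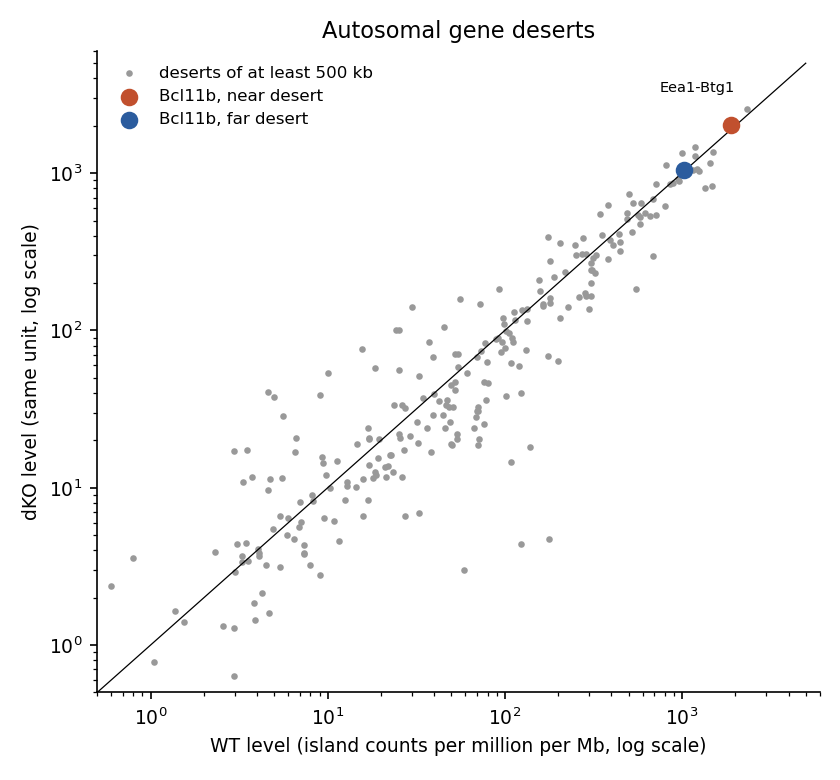
H3K27ac level of autosomal gene deserts in WT and dKO (CPM of islands per Mb, both axes log), for deserts with islands in both lists, with the line of equal levels. The near desert of Bcl11b (1886 and 2033) stands below the Eea1-Btg1 desert alone among deserts of at least 500 kb (below 3 in WT and 5 in dKO at 400 kb), and the far desert (1022 and 1052) lies on the line.

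At the level of whole genes, counted from the gene body to 50 kb upstream of the TSS, Bcl11b had 452 CPM in WT and 481 in dKO. It ranked 251st and 234th among 16385 protein-coding genes marked in both genotypes. The log2 ratio was 0.09 (0.07 to 0.11), and -0.11 per kb of island. Over all these genes the median ratio was -0.03 by counts and -0.16 per kb. By ratio Bcl11b stood at the 61.7th percentile, near the middle of the genes.

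Bcl11b was set beside a list of 16 other genes, called T lineage factors here. The list also holds the receptor gene Notch1 and Bcl11a, a factor that acts in B cells. Among the 17 it ranked 9th in WT and 7th in dKO by CPM, and 6th and 4th by CPM per kb of island. The order of levels per kb in WT placed it, at 4.21 CPM per kb, next to Satb1 (4.34), a chromatin organiser, and above Runx3 (3.71), a factor of the CD8 lineage. No replicate spread exists to separate neighbours in this order. Tcf7 and Lef1, the deleted genes, had 7.58 and 4.56 CPM per kb in WT and 8.06 and 3.73 in dKO. Islands over them do not check the deletion, which removes floxed exons and need not remove the mark around them.

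Of the 16 factors, 7 had a ratio above 0, beside 47.4% of all genes. By at least 1.5 times, 0 were higher in dKO and 1 was higher in WT, beside 11.5% of genes in each direction. The 1 was Bcl11a, the paralog of Bcl11b that acts in B cells, with 1556 counts in WT and 293 in dKO (-1.89, -2.07 to -1.71), and 0.11 per kb. Counted over gene bodies alone, 3 factors were higher in dKO (Runx3, Notch1 and Tcf3) and 3 in WT (Bcl11a, Tcf7 and Ets1), beside 14.9% and 15% of 14378 genes. An island touching a gene body was counted whole here. The dKO counts of Runx3 (41874), Notch1 (22783) and Bcl11a (293) and the WT count of Ets1 (80625) thus equal those to 50 kb upstream. Per kb, to 50 kb upstream, 0 passed, beside 69 of 16385 genes higher in dKO and 1518 higher in WT. The median ratio of the list was -0.08 by counts and -0.20 per kb. The highest ratios were those of the Runt-domain factors Runx3 (0.54) and Runx1 (0.46), and of Zbtb7b (0.29), the CD4 lineage factor. Gata3 (0.19), a zinc finger factor of T cell commitment, the E protein Tcf3 (0.18), Tcf7 (0.17) and Tox (0.13) followed.

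The other E protein, Tcf12, had a ratio of -0.01 and Zeb1 one of -0.15. Lef1 was at -0.30, Ets1 at -0.32, the receptor Notch1 at -0.33, Satb1 and Ikzf1 (Ikaros) at -0.39 and Myb, a factor of thymic progenitors, at -0.47. Over the gene body alone the direction turned for Notch1 (0.80), Tcf7 (-0.75), Gata3 (-0.01) and Tcf12 (0.06), while Bcl11b was at 0.05. From gene to 50 kb upstream, Bcl11b had a ratio in the middle of the list, with 7 factors above 0.09 and 9 below. Its depth ratio of -0.11 was above the list median.

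Among 9 innate and NK genes that Bcl11b is known to hold low, 8 had islands and 2 of these were at least 1.5 times higher in dKO, beside 11.5% of all genes. Zbtb16, which encodes PLZF, the factor of innate-like T cells, had 57.8 kb of island and 8336 counts in WT and 148.6 kb and 15628 counts in dKO, for a log2 ratio of 1.43 (1.39 to 1.46) but 0.06 per kb. Klrd1, which encodes the NK receptor chain CD94, stood just past the limit at 0.60 (0.54 to 0.65), with 0.08 per kb, and over its gene body alone the direction turned, to -0.49 (1701 counts in WT and 844 in dKO). None passed in WT, and per kb none passed in either direction. Over all 16385 genes, 69 were higher in dKO and 1518 higher in WT by as much per kb. Over gene bodies alone the genes higher in dKO were Zbtb16 (1.36), Fcer1g (1.08) and Nfil3 (0.76), beside 14.9% of all genes, and Id2 (-0.92) was higher in WT. Ncr1, which encodes the NK receptor NKp46, had no island in either list.

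The other 6 genes had ratios between -0.55 and 0.26. Id2, an inhibitor of E proteins, was lowest, at -0.55 (-0.58 to -0.51). The receptor gene Klrb1c and Nfil3, a factor of NK cell development, were both at 0.26, and the cytokine receptor chain Il2rb at -0.04. The signalling adaptors Fcer1g and Tyrobp were at -0.08 and -0.21, and Tyrobp, like Fcer1g, lay above 0 over its gene body alone (0.44). The median of the list was 0.11 by counts and -0.07 per kb.

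Of the 6 protein-coding genes flanking Bcl11b, 0 passed 1.5 times in either direction by counts. On the downstream side 3110018I06Rik was at -0.44, Vrk1, a kinase gene, at 0.19 (-0.06 over its body alone) and Papola, a poly(A) polymerase gene, at -0.11. The islands counted for 3110018I06Rik lie at the window edge and in the far desert, so its value is not separate from those given above. On the upstream side Setd3 was at 0.41, Ccnk at 0.10 and Ccdc85c at 0.19. Per kb Setd3 (-0.89) and Ccnk (-0.998) did pass, since their dKO islands covered 59.8 and 36 kb against 24.4 and 16.8 kb in WT. Over all 16385 genes, 1518 were higher in WT by as much per kb. The 50 kb upstream of Setd3 holds Ccnk, so the 2 values share islands and are not separate results. The Ccnk body alone held 0 counts in WT and 148 in dKO. Bcl11b itself covered 107.6 and 123.2 kb by the same rule.

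The genes with ratios most like those of Bcl11b, by distance in count ratio and ratio per kb among 1659 genes with at least 0.5 times its WT counts, were Tbc1d16, Nup210l, Hc, Jakmip1 and Slc37a1. Their count ratios ran from 0.08 to 0.09 and their ratios per kb from -0.10 to -0.09, so the 5 were all within 0.0141 of Bcl11b. The likeness rests on 2 pooled lists only.

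**Figure D5:**
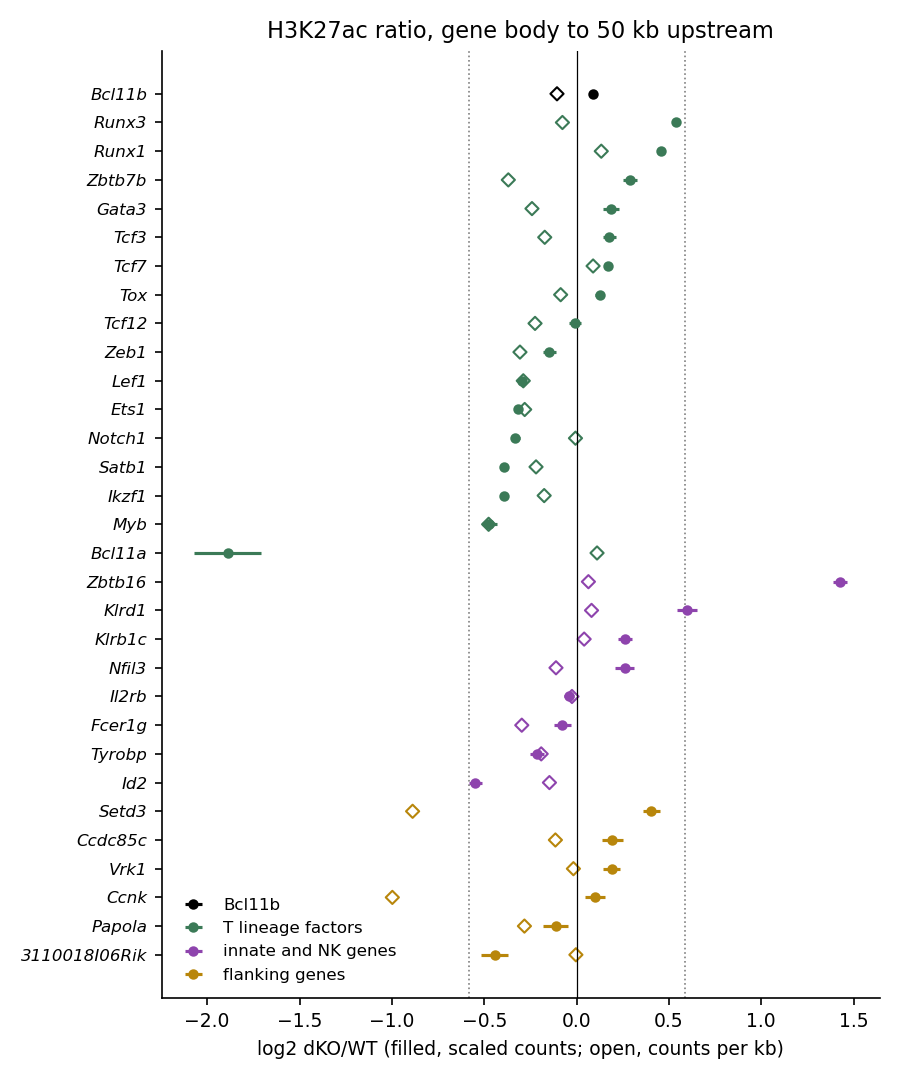
Log2 ratio of dKO to WT island counts from the gene body to 50 kb upstream, for Bcl11b, T lineage factors, innate and NK genes and flanking genes, with scaled counts filled (bars, 95% Wilson intervals) and scaled counts per kb open. Dotted lines mark 1.5-fold. Bcl11b (0.09) lies near 0, and Bcl11a (-1.89), Zbtb16 (1.43) and Klrd1 (0.60, but -0.49 over its body alone) lie past the lines by counts.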

How the data were processed

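H3K27ac ChIP-seq of sorted naive CD8+ T cells was analysed from 2 deposited island lists, WT and dKO, whose read counts per island are whole numbers scaled neither for depth nor for width. The authors aligned reads to mm9 with Bowtie2 2.2.5, kept unique alignments (MAPQ above 10), combined the 4 WT and the 3 dKO samples and ran SICER 1.1 on each pool with windows of 200 bp, gaps of 400 bp and an FDR under 0.01. Removal of duplicate reads is not given in the sources used here. Inputs were not analysed here.

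Pooling leaves no spread between replicates. A place with no island has no count, and a wider island holds more counts. Log2 ratios compare dKO with WT after division of each count by its list total. Intervals are 95% Wilson intervals of the dKO share of both counts, carried to the ratio; without molecular identifiers, reads cannot be taken as independent molecules. Starts in the lists count from 0 and are given here counted from 1. An island belonged to a segment by its midpoint, and shares of sequence covered were cut at the segment edges. For genes, an island touching the body or the 50 kb flank was counted whole. A ratio of at least 1.5 was called changed.

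Genes came from GENCODE vM1 on NCBIM37 (mm9). RefSeq tables of GRCm38.p6 gave gene types and the promoter entry, which was matched to mm9 by sequence. Stitched regions were ranked by counts with no input subtracted. The members, gene lists and markers were chosen with earlier results of these data known. Named regions were the 3 largest increases and 3 largest decreases by count and by counts per kb (at least 200 counts in both lists together), the 5 with the most WT counts and those found in 1 list. The far desert, its regions, the zones and the shown sequences were chosen after their values were seen. Other settings were tried for scaling, island filter, joining, window, fold, measure, desert length and gene assignment. Vrk1 as the edge, autosomal totals, deserts of at least 400 kb and RefSeq-named genes were tried after seeing the data. Merging, ratios and intervals were tested on simulated data. Python 3.11.15, NumPy 2.4.6, pandas 2.3.3 and matplotlib 3.10.9 were used.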

Additional observations from a re-analysis of the deposited data

How the results depend on the processing

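By scaled counts, the ratios of window, near desert and gene stayed above 0 under every alternative run for them. The reported log2 ratios of window, near desert and gene were 0.09, 0.11 and 0.012. Scaling to regions shared by both lists gave 0.16, 0.18 and 0.083, scaling to the median ratio 0.16, 0.18 and 0.085, and islands of at least 200 counts 0.16, 0.18 and 0.095. Ending the desert at the next gene of any biotype gave 0.11 and 0.18 for window and near desert, and islands wholly inside gave 0.12 and 0.15. The added extension to Vrk1 gave 0.064 and 0.065. The window ratio per kb (0.04) was 0.11 under both scalings, 0.13 with the 200-count filter, 0.013 with islands within 1 kb joined, -0.021 with the any-biotype edge and -0.019 with Vrk1 as the edge. Regions higher in WT (1) became 0 under both scalings, at 2-fold and per kb, and 7 to Vrk1. Regions higher in dKO (2) became 1 with joining and at 2-fold, 0 per kb, 4 with single-list regions counted (10 pseudocounts) and 12 to Vrk1. Deserts above the near desert in WT (1) were 0 of 248 at 1 Mb or more, 0 by covered share and 3 at 400 kb or more (added). With RefSeq-named genes (added) the Bcl11b desert ran to Vrk1, and 9 deserts were above that longer stretch. T lineage factors over gene bodies alone were 3 higher in dKO and 3 in WT, and 0 higher in WT per kb. Innate and NK genes higher in dKO (2) were 0 per kb. Over gene bodies alone they were 3, of which Zbtb16 is shared with the 2 and Klrd1 turned to -0.49, and 1 gene was higher in WT. Flanking genes higher in WT (0) were 2 per kb, which share islands. Added scaling to autosomal totals moved no result past these limits. The causes were not tested.

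No paired analysis was possible because each list pools the replicates of its genotype and carries no replicate number, and leaving out a replicate was not run for the same reason. The dKO list has fewer counts, so the precision of small regions is lower there, and differences below the spread of replicates cannot be recognised.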
